A study of Mus musculus with 4 samples.

Results

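The genes described here encode major histocompatibility complex (MHC) proteins, and comprise 10 of the 32285 genes counted in nuclei of the mouse lateral septum (LS). They were chosen by symbol: the class I heavy chains *H2-K1*, *H2-D1*, *H2-Q4*, *H2-Q6*, *H2-Q7*, *H2-T22* and *H2-T23*, the class II chains *H2-Aa* and *H2-Ab1*, and *B2m*, the light chain that all class I proteins share. Single-nucleus RNA sequencing counted RNA molecules by their unique molecular identifiers (UMIs) in 4 libraries, each made from the pooled LS of 3 male mice aged 6 to 8 weeks. Libraries C57J 1 and C57J 2 came from C57BL/6JNifdc mice, the nude library from BALB/c nude mice, which lack functional *Foxn1* and hence a thymus, and the BALB/c library from BALB/c mice. C57J 1 belonged to batch 1, and the other libraries belonged to batch 2. Nude and BALB/c mice share the BALB/c strain background, so the comparison of 2 C57J libraries with these 2 libraries is one of strain background, and the MHC haplotype and the rest of the background cannot be told apart. With 1 library each of nude and BALB/c mice, an effect of the missing thymus has no replicate, and p-values cover only the spread between these pools of mice.

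Class I proteins hold peptides from the cytosol at the cell surface, where CD8 T cells and natural killer cells read them. Heavy chains such as H2-K and H2-D as a rule need *B2m* and a peptide to reach the surface. The transporter Tap1-Tap2 carries such peptides into the endoplasmic reticulum. H2-K and H2-D are the classical, highly polymorphic heavy chains, whereas the Q and T genes encode nonclassical ones, among them *H2-T23* (Qa-1), a ligand of the natural killer receptor pair containing Klrd1. Class II proteins, pairs such as H2-Aa with H2-Ab1, present peptides from the endosome to CD4 T cells and are made chiefly by professional antigen-presenting cells. In brain, class I transcripts are present at low levels in neurons and glia, and class II proteins appear on microglia mainly when these are activated. C57BL/6 mice carry the b haplotype of this region and BALB/c mice the d haplotype, and the mm10 genome to which the reads were aligned is that of C57BL/6J.

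The heavy-chain genes resemble each other closely in places, which the following coding stretches show. For each pair of genes, the 120-base stretch without gaps that held the fewest differences was picked. An effect on counting cannot be read from such a stretch alone. Both stretches of *H2-K1* and *H2-D1* encode part of the conserved membrane-proximal domain, run from coding base 656 to 775 in *H2-K1* and from 665 to 784 in *H2-D1*, and are given from GENCODE vM21 on GRCm38, with the single differing base in capitals. The third stretch, coding bases 605 to 724, is identical in *H2-Q6* and *H2-Q7*.
H2-K1: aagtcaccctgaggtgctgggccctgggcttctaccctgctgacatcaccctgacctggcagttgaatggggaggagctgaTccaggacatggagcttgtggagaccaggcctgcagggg
H2-D1: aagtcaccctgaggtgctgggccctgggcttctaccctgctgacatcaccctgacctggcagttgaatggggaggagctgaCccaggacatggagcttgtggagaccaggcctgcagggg
H2-Q6 and H2-Q7: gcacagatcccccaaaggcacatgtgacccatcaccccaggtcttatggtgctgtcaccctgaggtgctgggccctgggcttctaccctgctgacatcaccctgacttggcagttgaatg

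Over the whole coding sequence *H2-K1* and *H2-D1* were 91.5% identical, and *H2-Q6* and *H2-Q7* 95.5%. Reads with more than 1 place in the genome are not counted by Cell Ranger, so each member's transcript was split into 90-base windows, which were searched for in every other annotated mouse transcript. Introns were not searched, and the sources used here do not say if intron reads were counted. Exons cover 15.9% (*B2m*), 21.9% (*H2-Ab1*) and up to 93.7% (*H2-T23*) of a member's gene. For *B2m*, *H2-Aa* and *H2-Ab1*, 100% of the transcript windows occurred in no other gene's transcripts. The share was 99.9% for *H2-K1*, 94.5% for *H2-D1*, 90.9% for *H2-T23* and 81.9% to 84.0% for *H2-Q4*, *H2-Q6*, *H2-Q7* and *H2-T22*. An exact search covers only reads of the reference haplotype. Windows within 5 mismatches of another H2 gene made up 37.2% in *H2-K1*, 27.8% in *H2-D1*, 49.3% in *H2-T23*, 53.6% to 70.5% in the 3 Q genes and 92.6% in *H2-T22*, whose closest relative was *H2-T10*, against 0% in *H2-Aa* and *B2m* and 2.58% in *H2-Ab1*. The libraries were of the 3′ type, which favours the transcript end. In the last 500 bases this share was 6.33% in *H2-K1*, 7.54% in *H2-D1*, 22.6% in *H2-T23* and 96.8% in *H2-T22*. It was 13.4% in *H2-Q4*, 31.9% in *H2-Q6* and 8.27% in *H2-Q7*. Which stretches the counted reads came from was not tested. BALB/c mice also carry *H2-L*, a class I gene that C57BL/6 mice and the reference lack and that is closely related to *H2-D1*, so its reads may have been counted as *H2-D1* or another H2 gene. How completely d-haplotype reads were counted was not tested, and for the heavy chains and class II chains a difference in level between backgrounds and a difference in read mapping cannot be told apart. *B2m* lies outside the MHC, at chr2:122147686-122153083 on the plus strand, and none of its windows lay within 5 mismatches of an H2 gene. Near matches of *B2m* to other genes were not sought. Its BALB/c allele was not compared either.

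**Figure D1:**
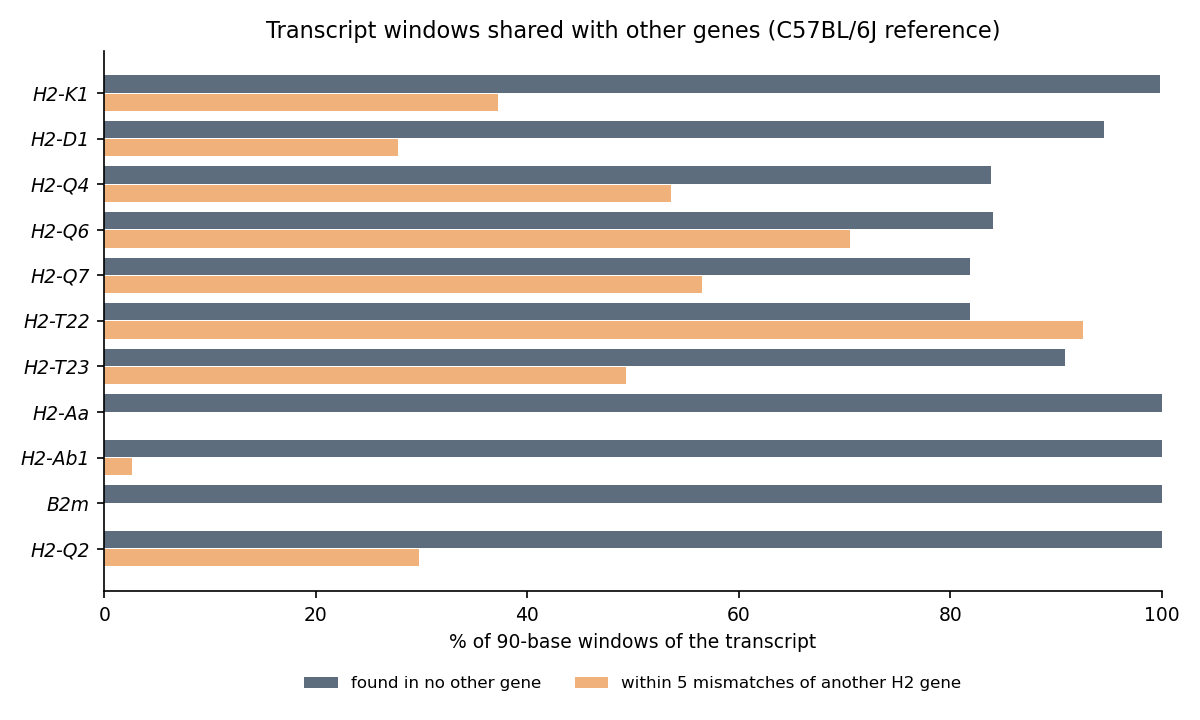
Share of 90-base transcript windows (percent, horizontal axis) of each member and of *H2-Q2* that occurred in no other annotated gene and that lay within 5 mismatches of another H2 gene. *B2m*, *H2-Aa* and *H2-Ab1* were 100% unique, whereas 92.6% of *H2-T22* windows lay close to another H2 gene. Introns were not searched.

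On GRCm38, *H2-K1* (ENSMUSG00000061232) occupies chr17:33996017-34000347 on the minus strand and *H2-D1* (ENSMUSG00000073411) chr17:35262730-35267499 on the plus strand. The Q genes lie next to *H2-D1* on the plus strand, *H2-Q4* at chr17:35379617-35385290, *H2-Q6* at chr17:35424850-35430055 and *H2-Q7* at chr17:35439155-35443773. *H2-T23* at chr17:36029773-36032855 and *H2-T22* at chr17:36037128-36042747 neighbour each other on the minus strand. The class II chains lie between *H2-K1* and *H2-D1*, *H2-Ab1* at chr17:34257689-34269419 on the plus strand and *H2-Aa* at chr17:34282744-34287823 on the minus strand. All are annotated as protein-coding.

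Upstream sequence was examined because *B2m* and the heavy chains are known to share control elements. The 200 bases upstream of the start sites of 4 members, picked with their levels known, are given 5′ to 3′ from RefSeq on GRCm38.p6. They are *H2-K1* from chr17:34000348-34000547 (minus strand), *H2-D1* from chr17:35262894-35263093 (plus), *H2-T23* from chr17:36032702-36032901 (minus) and *B2m* from chr2:122147487-122147686 (plus). *H2-Ab1* had no entry. Capitals mark matches, on either strand, to the palindromic enhancer A (an NF-kB site, the first run of capitals in *H2-K1* and *H2-D1*), AANNGAAA (the core bound by interferon regulatory factors), TGACG (the core bound by CREB and ATF factors) and CCAAT.
H2-K1: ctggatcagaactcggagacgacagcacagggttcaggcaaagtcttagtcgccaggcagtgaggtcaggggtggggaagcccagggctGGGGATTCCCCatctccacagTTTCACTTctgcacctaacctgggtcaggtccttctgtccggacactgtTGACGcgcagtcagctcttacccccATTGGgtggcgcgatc
H2-D1: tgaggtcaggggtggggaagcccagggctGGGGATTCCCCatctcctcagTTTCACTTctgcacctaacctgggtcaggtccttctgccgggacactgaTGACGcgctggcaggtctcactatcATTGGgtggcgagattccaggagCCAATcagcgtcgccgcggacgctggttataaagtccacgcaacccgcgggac
H2-T23: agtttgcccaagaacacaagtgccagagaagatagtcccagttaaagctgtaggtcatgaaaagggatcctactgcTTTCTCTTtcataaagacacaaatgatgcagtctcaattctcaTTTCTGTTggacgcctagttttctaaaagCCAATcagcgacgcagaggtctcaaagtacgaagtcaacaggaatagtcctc
B2m: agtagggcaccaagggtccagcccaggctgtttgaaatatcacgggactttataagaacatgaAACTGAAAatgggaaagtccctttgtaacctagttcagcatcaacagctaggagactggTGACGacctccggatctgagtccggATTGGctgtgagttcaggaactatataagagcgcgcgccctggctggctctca

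Enhancer A was found in 3 of the 9 members with an entry (*H2-K1*, *H2-D1* and *H2-Q6*) and in 9 of 32851 upstream windows of the same length in all mouse genes (0.0274%). AANNGAAA was present in 8 of the 9 members, against 17.02% of all windows, TGACG in 7 (15.7%) and CCAAT in 9 (29.3%). *H2-T23* held AANNGAAA and CCAAT but neither of the other 2 motifs within these 200 bases. The members' own windows are included in the counts over all windows. Upstream sequences of related heavy chains, such as *H2-K1* and *H2-D1* above, resemble each other, so matches in several members are not independent. These are matches of letters in C57BL/6J sequence, and binding was not measured.

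After quality limits and removal of predicted doublets, 49425 nuclei remained, 10913 to 13075 per library, with median depths of 4114 to 8373 UMIs and the deepest nuclei in the BALB/c library. Pairs of libraries shared 29 to 63 barcodes (0.231% to 0.478% of the smaller library). Nuclei were clustered without the members and assigned by marker genes to neurons (6406 to 8640 per library), astrocytes (1777 to 2047), oligodendrocytes (OLs, 1131 to 1519), oligodendrocyte precursor cells (OPCs, 463 to 509) and microglia (293 to 404), with 115 to 418 unnamed. *Foxn1* had 5, 1, 3 and 3 UMIs in C57J 1, C57J 2, nude and BALB/c, too few to check the nude label. Summed markers of neurons reached 2765 CPM (C57J 1), 3234 (C57J 2), 3698 (nude) and 1436 (BALB/c) inside microglia, against 6637 to 7110 in neurons. Inside OLs they reached 1919, 2083, 2966 and 929 CPM in the same order. In astrocytes and OPCs, too, nude was highest and BALB/c lowest. Levels in glia thus include some RNA of neurons, in amounts that differed by library, and the part of this in the results was not tested. Levels are counts per 1000000 UMIs of the class (CPM), and 4 values in a row stand for C57J 1, then C57J 2, then nude, then BALB/c. Intervals for single libraries are exact Poisson 95% intervals, or exact Clopper-Pearson ones for shares, and cover counting error only.

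*B2m*, the shared light chain, was highest in microglia among these 5 classes and lower in both BALB/c-background libraries than in both C57J libraries in neurons, astrocytes, OLs and OPCs. In neurons its level was 13.5, 9.71, 5.92 and 3.90 CPM, from 903, 490, 341 and 324 UMIs. Astrocytes had 36.4, 27.5, 16.1 and 16.7 CPM, and in both classes the 2 groups did not overlap. OLs had 27.2, 18.9, 15.8 and 6.92 and OPCs 26.6, 34.4, 16.7 and 11.5 CPM, again without overlap. Markers of OLs summed to 479, 508, 352 and 296 CPM inside neurons, likewise without overlap and lower in the BALB/c background, and their part in the neuron values of *B2m* and the other members was not tested. In microglia *B2m* was at 96.5, 69.2, 52.9 and 71.9 CPM, where BALB/c lay between the C57J libraries. Markers of border macrophages, cells that also express MHC genes, summed to 28.3, 14.6, 5.88 and 134 CPM inside these microglia (4, 2, 3 and 5 of 5 markers found), and their part in the microglia values was not tested. *Cd3e*, *Cd3d*, *Cd3g* and *Trac*, defining genes of T cells, were at 0 UMIs in microglia of every library. The marker list of T cells also held *Skap1* and *Cd2*, whose counts are not given here, and absence of T cells was not tested. Microglia exceeded neurons 7.13- to 18.4-fold, and in all 4 libraries their interval lay above that of the next of the 5 classes. The log2 fold change of the BALB/c background against C57J was −1.23 ± 0.27 (SE) in neurons, −0.89 ± 0.22 in astrocytes, −1.09 ± 0.41 in OLs, −1.08 ± 0.30 in OPCs and −0.33 ± 0.31 in microglia. In edgeR (quasi-likelihood, Benjamini-Hochberg adjusted over all genes of the class) the adjusted p was 0.0864 in neurons, 0.383 in astrocytes, 0.846 in OLs, 0.318 in OPCs and 0.955 in microglia, so no difference passed. Over all nuclei, where a shift in the share of a class and a shift in level within it cannot be told apart, *B2m* was at 16.7, 12.9, 7.72 and 6.00 CPM (log2 fold change −1.10, adjusted p = 0.0737). The call depended on the setting. In neurons *B2m* passed with DESeq2 and with no filter on low counts. Those settings called 732 of 19645 and 956 of 27228 of all genes, against 397 of 19645 in the main test. Without C57J 1, the batch 1 library, the log2 fold change in neurons was −0.94. Without nude it was −1.60 in OLs and −1.27 in OPCs.

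**Figure D2:**
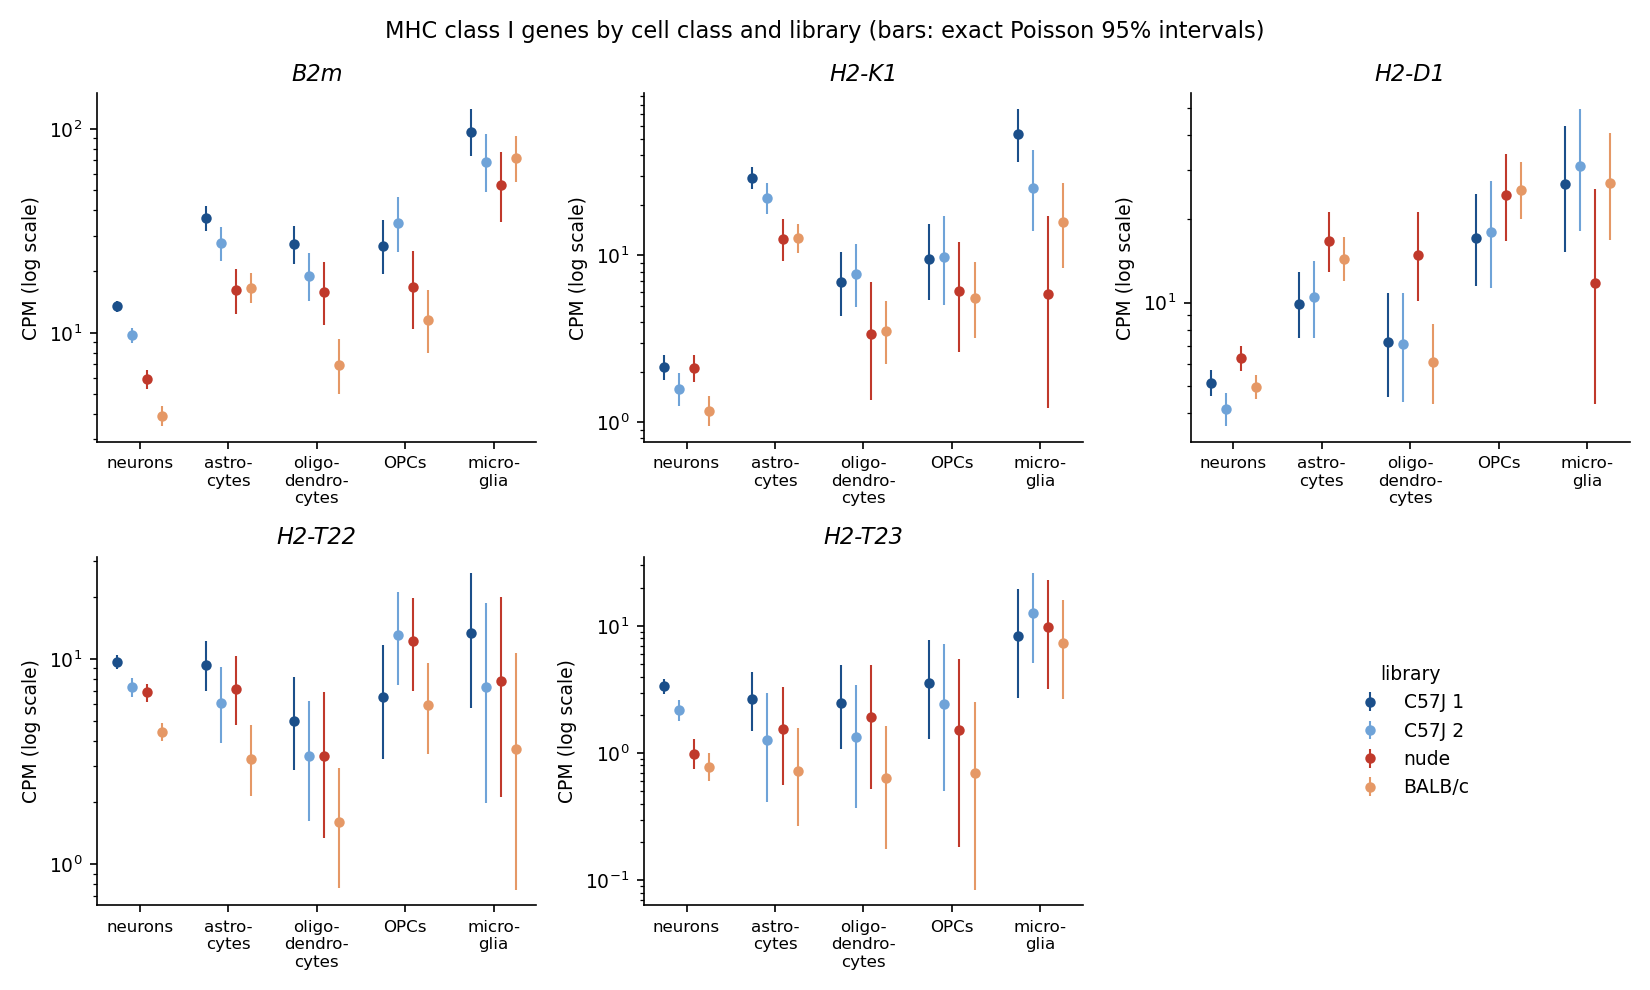
CPM (vertical axis, log scale) of *B2m*, *H2-K1*, *H2-D1*, *H2-T22* and *H2-T23* in each cell class, with points for the single libraries and bars for exact Poisson 95% intervals. Of the 5 classes plotted, *B2m* was highest in microglia in every library, and its BALB/c-background points lay below the C57J points in every class but microglia.

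*H2-K1*, a classical heavy chain, had the largest ratio of astrocytes to neurons among the members with more than 500 UMIs. Astrocytes had 29.1, 22.1, 12.5 and 12.7 CPM (165, 87, 49 and 105 UMIs), against 2.14, 1.58, 2.10 and 1.17 in neurons. The ratio of astrocytes to neurons ranged from 5.97 to 13.97. OLs had 6.89, 7.77, 3.36 and 3.54 CPM and OPCs 9.45, 9.83, 6.08 and 5.58. In microglia 53.2, 25.5, 5.88 and 15.8 CPM rested on 32, 14, 3 and 13 UMIs, and the intervals of microglia and astrocytes were separate only in C57J 1. The C57J libraries were higher than both others in every glial class and overlapped with them in neurons. The log2 fold change was −0.95 ± 0.23 (SE) in astrocytes (adjusted p = 0.370), −0.997 ± 0.402 in OLs (0.903), −0.65 ± 0.43 in OPCs (0.8002), −1.68 ± 0.56 in microglia (0.926) and −0.19 ± 0.35 in neurons (0.882), by the same edgeR test. Without BALB/c the microglia value was −2.66. The estimate in neurons turned positive without C57J 1 (0.08) or without BALB/c (0.19). Within neurons, those with medial septal markers had 1, 3, 17 and 15 UMIs of *H2-K1* (0.306, 0.996, 4.81 and 2.34 CPM), and LS neurons 1.95, 1.52, 1.83 and 0.946 CPM. Those with striatal markers had 30, 10, 4 and 4 UMIs (3.54, 3.08, 1.83 and 0.955 CPM), with both C57J libraries above both others. The remaining neurons had 2.67, 1.51, 2.74 and 2.16 CPM.

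*H2-D1*, the other classical heavy chain, had its values in astrocytes and OPCs in the opposite order of backgrounds. Its level in astrocytes was 9.89, 10.43, 16.6 and 14.4 CPM, and in OPCs 17.1, 18.0, 24.3 and 25.5, with both BALB/c-background libraries above both C57J libraries. In neurons it was 5.14, 4.14, 6.31 and 4.97 CPM, with overlap. In OLs nude stood apart at 14.9 CPM, against 7.20 and 7.10 in C57J and 6.11 in BALB/c. Microglia had 26.6, 30.9, 11.8 and 26.8 CPM, from 16, 17, 6 and 22 UMIs. Microglia or OPCs were highest in each library, but in none were the intervals of the first 2 classes separate. OPCs exceeded neurons 3.33- to 5.13-fold, and astrocytes exceeded neurons 1.92- to 2.90-fold. No difference between backgrounds passed the edgeR test. The log2 fold change was 0.67 ± 0.23 (SE) in astrocytes (adjusted p = 0.600), 0.59 ± 0.27 in OPCs (0.662), 0.29 ± 0.22 in neurons (0.642), 0.48 ± 0.46 in OLs (0.9995) and −0.44 ± 0.46 in microglia (0.960).

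The balance of both classical genes is a ratio within a library and does not depend on its depth. *H2-K1* made up 74.7% (95% interval 68.4 to 80.3) and 68.0% (59.1 to 75.9) of the *H2-K1* and *H2-D1* UMIs of astrocytes in the C57J libraries. The share was 43.0% (33.7 to 52.6) in nude and 46.9% (40.2 to 53.6) in BALB/c, and these intervals lay below those of C57J. Over all nuclei the share was 44.6% (41.2 to 47.9), 41.3% (37.1 to 45.5), 27.9% (24.6 to 31.4) and 27.8% (24.96 to 30.8). In neurons it was 29.4%, 27.7%, 25% and 19.1%, in OLs 48.9%, 52.3%, 18.4% and 36.7%, in OPCs 35.6%, 35.3%, 20% and 18.0%, and in microglia 66.7%, 45.2%, 33.3% and 37.1%. Both C57J libraries thus had the higher share in all 5 classes. Of these classes, only astrocytes had both C57J intervals above both others. In neurons, for example, C57J 2 had 22.6 to 33.2 and nude 21.2 to 29.1. In microglia C57J 2 had 27.3 to 64.0 and BALB/c 21.5 to 55.1. Both genes are highly polymorphic. The additional *H2-L* of BALB/c mice can add reads to the *H2-D1* side only in the nude and BALB/c libraries. Its part in the ratio was not tested.

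**Figure D3:**
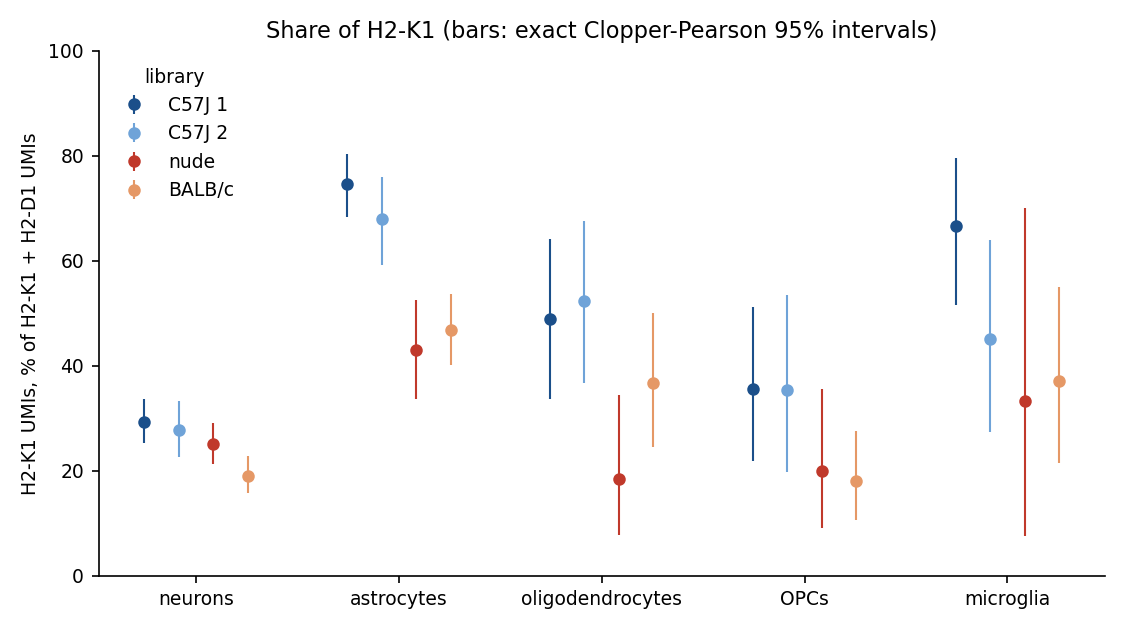
*H2-K1* as a percentage of *H2-K1* plus *H2-D1* UMIs (vertical axis) in each cell class and library, with exact Clopper-Pearson 95% intervals. In astrocytes C57J lay at 74.7% and 68.0%, above nude at 43.0% and BALB/c at 46.9%.

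*B2m* UMIs were also set against the summed UMIs of the 7 heavy-chain members. In neurons there were 0.637, 0.620, 0.344 and 0.315 *B2m* UMIs per heavy-chain UMI. Over all nuclei the ratio was 0.674, 0.670, 0.390 and 0.395, so both members of each background lay close together. Microglia differed from this order, with 0.879, 0.826, 1.17 and 1.05. These are ratios of UMI counts, not of protein.

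*H2-T22* and *H2-T23*, nonclassical genes of the T region, were spread over the classes differently. *H2-T22* was the member with the flattest pattern, at 9.69, 7.27, 6.86 and 4.41 CPM in neurons and 9.36, 6.11, 7.17 and 3.26 in astrocytes. OLs were lowest in every library, with 5.01, 3.38, 3.36 and 1.61 CPM, or 0.365 to 0.517 times the neuron level. OPCs had 6.50, 13.1, 12.2 and 5.93 and microglia 13.3, 7.28, 7.84 and 3.66 CPM, the latter from 3 to 8 UMIs. Because 96.8% of windows in the last 500 bases of *H2-T22* lay within 5 mismatches of another H2 gene, its counts are uncertain. Levels of *H2-T10* are not given here. *H2-T23* had 3.36, 2.18, 0.990 and 0.783 CPM in neurons (225, 110, 57 and 65 UMIs), with both C57J libraries above both others. Its microglia values were 8.32, 12.7, 9.79 and 7.31 CPM from 5 to 7 UMIs, 2.48 to 9.89 times the neuron level and without the split by background. Astrocytes had 2.65, 1.27, 1.54 and 0.725 CPM of *H2-T23*. In neurons the log2 fold change was −1.64 ± 0.32 (SE) for *H2-T23* (edgeR, adjusted p = 0.0630) and −0.58 ± 0.27 for *H2-T22* (adjusted p = 0.402). No member had a smaller adjusted p in any class. *H2-T23* in neurons passed with DESeq2 and with no filter on low counts, where 732 of 19645 and 956 of 27228 of all genes were called.

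*H2-Q4*, *H2-Q6* and *H2-Q7*, nonclassical genes of the Q region, were rare. *H2-Q4* had 73, 32, 51 and 104 UMIs in all nuclei, or 0.922, 0.531, 0.767 and 1.01 CPM. In neurons it was at 0.777, 0.337, 0.712 and 1.00 CPM, with a log2 fold change of 0.61 ± 0.45 (SE, edgeR adjusted p = 0.632), which was 0.15 without C57J 2 and 1.41 without C57J 1. Its highest class was microglia in 4 of 4 libraries, at 6.65, 7.28, 5.88 and 12.2 CPM, though from 3 to 10 UMIs. *H2-Q6* had 4, 3, 3 and 2 UMIs and *H2-Q7* 5, 6, 16 and 6 UMIs in all nuclei, too few to be tested. For *H2-Q7*, 11 of the 16 UMIs in nude lay in neurons.

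Class II genes were close to absent. *H2-Aa* had 2, 1, 1 and 2 UMIs among all nuclei of a library, and *H2-Ab1* 7, 2, 15 and 19. Of the *H2-Ab1* UMIs, 3, 2, 10 and 16 lay in neurons (0.0448, 0.0396, 0.174 and 0.193 CPM), where both BALB/c-background libraries were higher and the log2 fold change was 2.08 ± 0.55 (SE, edgeR adjusted p = 0.144). Markers of border macrophages, which make class II proteins, summed to 0.851, 1.51, 2.80 and 2.02 CPM inside neurons (57, 76, 161 and 168 UMIs), also higher in both BALB/c-background libraries. Other class II pathway genes went the other way in neurons. *Cd74* had a log2 fold change of −2.61, and *H2-Eb1* had 18 UMIs in C57J and 1 in the BALB/c background. The part of border macrophages in these values was not tested. The transcript windows of *H2-Ab1* were unique among annotated transcripts, and its introns and the alleles of the d haplotype were not compared. In microglia *H2-Ab1* had 2, 0, 1 and 1 UMIs and *H2-Aa* 2, 0, 0 and 0. A UMI of *H2-Aa*, *H2-Ab1* or *Cd74*, the invariant chain that accompanies class II proteins, was found in 3 of 328, 0 of 404, 2 of 332 and 2 of 293 microglia. The corresponding shares were 0.915%, 0%, 0.602% and 0.683%. By the limit of 3 counts, 0 of 404 allows a share of nuclei with such a UMI of up to 0.743%, or 0.909% by the Clopper-Pearson interval, which does not limit the share of nuclei expressing class II. Neurons, which should lack class II, had 0.364%, 0.156%, 0.150% and 0.343%, at median depths of 6013 to 12166 UMIs against 1317 to 2658 in microglia. After thinning to 1000 UMIs per nucleus, such a UMI remained in 1 of 326, 0 of 346, 1 of 297 and 1 of 293 microglia. These shares were 0.307%, 0%, 0.337% and 0.341%. Among neurons it remained in 6 of 8520, 1 of 7675, 2 of 8640 and 0 of 6403, or 0.0704%, 0.0130%, 0.0231% and 0%. With *H2-Eb1* added, 55, 27, 21 and 31 class II UMIs were spread over 51, 25, 21 and 30 nuclei, of which 41, 19, 14 and 22 were neurons. At most 4 nuclei in a library held 2 or more, and none held 5. A group of nuclei rich in class II transcripts was therefore not detectable at this depth.

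**Figure D4:**
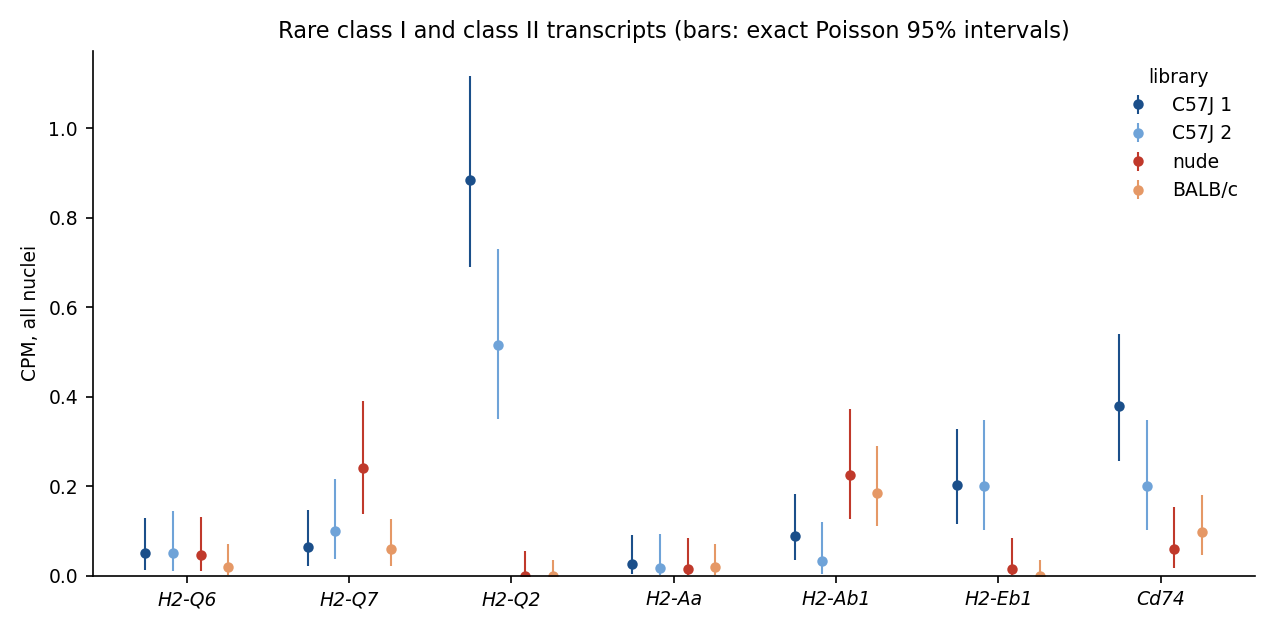
CPM over all nuclei (vertical axis) of the rare members *H2-Q6*, *H2-Q7*, *H2-Aa* and *H2-Ab1* and of *H2-Q2*, *H2-Eb1* and *Cd74*, with a point for each library and exact Poisson 95% intervals as bars. *H2-Ab1* was higher in nude (0.226) and BALB/c (0.185) than in C57J (0.0884 and 0.0332), whereas *H2-Q2* was counted only in C57J.

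At the main resolution, vascular clusters were named with predicted doublets retained, and levels in them are an analysis added after the data were seen. In endothelial nuclei *H2-D1* reached 65.1, 95.7, 96.7 and 84.9 CPM, from 4 to 13 UMIs per library, which was above its level in neurons, astrocytes, OLs, OPCs and microglia of the same library. *B2m* was at 101, 79.8, 48.3 and 97.9 CPM there, from 2 to 15 UMIs, which was above its level in microglia in C57J 1, C57J 2 and BALB/c. *H2-K1* in these nuclei rested on 2 to 5 UMIs per library. Mural cells and fibroblasts held at most 9 UMIs of any member in a library.

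Across all tested genes, the test found few differences between backgrounds in most classes. In neurons 7 members had enough UMIs to be tested and 0 were called (adjusted p under 0.05 with a log2 fold change over 0.5 in size), against 2.02% of all genes tested. With DESeq2 3.73% of all genes were called, *B2m* and *H2-T23* among them. An unadjusted p below 0.05 was reached by 3 of these 7, against 14.0% of all genes. In astrocytes 0 of 4 members were called (all genes, 0.0640%) and 3 had an unadjusted p below 0.05 (7.33%). In OLs 0 of 4 were called (0.0714%) and 2 had such a p (5.44%). In OPCs 0 of 4 were called (0.236%) and 1 had such a p (7.58%). In microglia 0 of 3 were called (0%), and edgeR called no gene at all there, with 449 genes (5.03%) at an unadjusted p below 0.05, *H2-K1* among them, and 15 genes (0.168%) called by DESeq2. Over all nuclei 0 of 7 were called (1.55%), and 4 had an unadjusted p below 0.05 (12.8%), while DESeq2 called *B2m* and *H2-T23* and 3.60% of all genes. Members had to pass a filter on low counts, so the tested ones are not all 10. In simulated data the edgeR test recovered from 5.21% (OLs) to 63.3% (neurons) of log2 changes of 1. A member that was not called can therefore still differ.

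Counts of members without overlap between the groups had a high background. In neurons 3 tested members were lower in both BALB/c-background libraries (all genes, 25.8%) and 1 was higher (19.0%). Astrocytes had 2 lower (25.8%) and 1 higher (12.4%), OLs 3 lower (20.8%) and 0 higher (12.4%), OPCs 2 lower (24.6%) and 1 higher (12.4%), and microglia 1 lower (19.0%) and 0 higher (13.7%). Over all nuclei 4 were lower (24.6%) and 2 higher (17.8%). The median log2 fold change of the tested members was −0.19, −0.74, −0.93, −0.38 and −0.44 in neurons, astrocytes, OLs, OPCs and microglia, whereas that of all genes lay between −0.02 and 0.01.

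**Figure D5:**
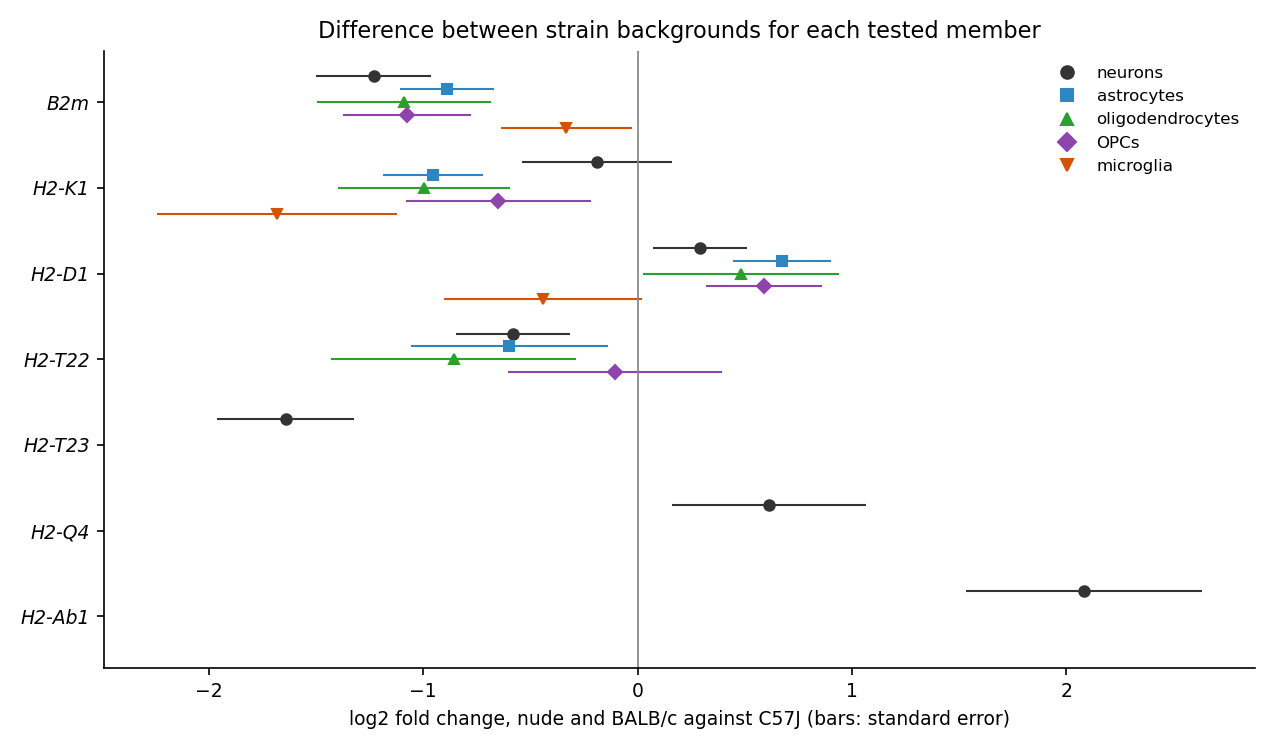
Log2 fold changes of the tested members (nude and BALB/c against C57J, horizontal axis) in each cell class, with bars for the standard error of the edgeR fit. *B2m* lay below 0 in every class, from −1.23 in neurons to −0.33 in microglia, and no member passed the adjusted threshold.

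Whether the difference between backgrounds varied by class was tested as an interaction, an analysis added after the data were seen. For *B2m* in microglia the log2 fold change exceeded that in neurons by 0.91 ± 0.36 (SE, edgeR adjusted p = 0.994), and for *H2-K1* in microglia it was 1.44 ± 0.71 below that in neurons (difference −1.44, adjusted p = 0.994). No member passed in astrocytes, OLs, OPCs or microglia, where the interaction was significant for 0%, 0%, 0.0958% and 0% of all genes, respectively.

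Nude and BALB/c, which share a haplotype, differed from each other in depth and in several members. In neurons the Poisson intervals of 4 of 10 members were separate (*H2-K1*, *H2-D1*, *H2-T22* and *B2m*), and nude was higher in each. Of all genes tested in neurons, 31.9% had separate intervals and 16.6% with nude higher. Only 7 of the 10 members, these 4 included, were among the genes tested in neurons. *H2-T22* was also separate in astrocytes (24.9% of genes, 15.3% with nude higher), and *H2-D1* and *B2m* in OLs (26.3%, 17.9% with nude higher), again with nude higher. The C57J libraries, which the labels give as replicates, had separate intervals for 4 members in neurons as well (*H2-Q4*, *H2-T22*, *H2-T23* and *B2m*), where 35.2% of genes did. In astrocytes and OLs they had 0 such members (13.9% and 12.5% of genes). The comparison of nude with BALB/c has no replicate.

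The other genes of antigen presentation were examined as lists. None of the 14 genes of the class I pathway, which includes the transporter genes *Tap1* and *Tap2*, was called in any class. From 7 (microglia) to 12 (neurons and astrocytes) of them were tested in a class, and 14 over all nuclei. *Tap2*, like *H2-K1*, was higher in astrocytes than in neurons, with 1.39, 1.27, 1.18 and 0.736 CPM in neurons and 16.1, 16.3, 9.47 and 8.70 in astrocytes. The median log2 fold change of the list in neurons was 0.05 over 12 tested genes. Of 13 class II pathway genes 11 were measured. Tests covered 6 of them in neurons, 3 in astrocytes, 2 in each of OLs, OPCs and microglia, and 8 over all nuclei. Of these 0 were called, against 2.02% of all genes in neurons. *Cd74* had 30, 12, 4 and 10 UMIs in all nuclei and a log2 fold change of −2.61 ± 0.63 (SE) in neurons (edgeR adjusted p = 0.115). *H2-Eb1*, the beta chain of the other class II protein, had 16, 12, 1 and 0 UMIs in all nuclei (edgeR adjusted p = 0.0606). Its pooled count per UMI was 33.9-fold lower in the BALB/c background (95% interval 5.61 to 1388, counting error only). Windows of *H2-Eb1* were not searched, and a difference in level and one in read mapping cannot be told apart. *Ciita*, the master regulator of class II genes, was present in neurons at 1.94, 3.78, 2.62 and 2.48 CPM, where class II genes were nearly absent.

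Among 20 other class I genes, 18 were measured, and 9 were tested in neurons and 9 over all nuclei. Of those tested, 1 fell and 0 rose in neurons, where 1.22% of all genes tested fell, and the same 1 fell over all nuclei (0.926%). This was *H2-Q2*, a Q-region gene at chr17:35342242-35346762, with 65, 25, 0 and 0 UMIs in neurons and 70, 31, 0 and 0 in all nuclei. It was at least 35.9-fold lower in neurons and at least 40.8-fold lower in all nuclei of the BALB/c background, against a limit of 3 counts over both libraries (edgeR adjusted p = 0.0252 and 0.0221). All of its 90-base transcript windows were unique among annotated transcripts, and 29.8% lay within 5 mismatches of another H2 gene. A missing or diverged d allele cannot be told apart from silence of the gene. Of 9 genes for class I receptors, 4 were tested in neurons and 0 in each glial class. In neurons 1 was lower and 0 were higher, against 240 lower and 157 higher among 19645 genes tested. *Klra2*, a receptor of the Ly49 family in the polymorphic natural killer gene complex on chromosome 6, had 3.29, 3.13, 1.11 and 1.00 CPM in neurons (log2 fold change −1.59 ± 0.23 SE, edgeR adjusted p = 0.0280). Windows of *Klra2* were not searched, and for it, too, a difference in level and one in read mapping cannot be told apart. *Pirb*, a receptor for class I proteins, had a log2 fold change of −1.86 ± 0.51 in neurons (adjusted p = 0.156). None of 10 interferon signalling genes was called, of which 7 (OPCs) to 10 (neurons) were tested in a class. *Irf1*, a transcription factor induced by interferon, was at 1.63, 2.61, 0.886 and 0.675 CPM in neurons (log2 fold change −1.42 ± 0.33 SE, edgeR adjusted p = 0.102).

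Genes with the pattern most like *B2m* were sought over 20 points, the 5 classes in 4 libraries, among 11162 genes, by Pearson's r of log2(CPM + 1). They were *Hnrnph1* (r = 0.953), *Emg1* (0.941), *Mbd3* (0.936), *Arhgef1* (0.935) and *Prrc2a* (0.933). For *H2-D1* they were *Orai1* (0.920), *Tmem176b* (0.919), *Tmem176a* (0.912), *Chst7* (0.903) and *Mtap* (0.902). For *H2-Aa*, which had 6 UMIs over these classes, they were *Pdpk1* (0.791), *Pomgnt1* (0.789), *Usp21* (0.789), *Ppp1r11* (0.767) and *Zfp672* (0.763). Among the members, *B2m* was most like *H2-T23* (r = 0.835) and *H2-K1* (0.822), and *H2-D1* had an r of 0.658 with *H2-K1*. Points of a library share its depth, so these values are descriptions.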

How the data were processed

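LS nuclei of 4 libraries were sequenced, and per the labels the authors made the files with Cell Ranger 7.0.1 on mm10. The authors deposited raw UMI counts per gene and barcode, without normalization. The sources used here do not say if intron reads were counted. Library totals were 72912922 to 125998527 UMIs. Of the study's quality limits, those on genes (between 200 and 6000), UMIs (between 300 and 50000) and mitochondrial share (under 2%) were applied, its ratio limit was not, and predicted doublets were removed (0.8% per 1000 nuclei), which left 10913 to 13075 nuclei. Nuclei were clustered with leidenalg 0.10.2, without 82 listed genes (the members included) and without 102 genes that differed between backgrounds. Clusters were named from marker lists, and the limits for naming were settled after clusters had been seen. UMIs were summed per library and class and compared with edgeR 4.0.16 in R 4.3.3 (filterByExpr, TMM, quasi-likelihood F test, Benjamini-Hochberg adjustment), 2 C57J libraries against nude and BALB/c. The study tested single nuclei, whereas here the library was the unit. A zero count was read as allowing up to 3 counts. Tests were checked on simulated data with 200 changed genes. Log2 changes of 2 were recovered in 90.9% of cases in neurons, 87.6% in astrocytes, 75.5% in OLs, 97.9% in OPCs and 72.0% in microglia. Log2 changes of 1 were recovered in 63.3%, 27.8%, 5.21%, 42.3% and 7.45% of cases in the same classes. Over all nuclei the values were 95.9% and 59.2%. There were 5 to 26 false calls.

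Members and lists were chosen with earlier results of these data known. All 10 members were named by rule, as were list genes that were called and the 5 most alike genes. *Tap2*, *Ciita*, *Cd74*, *H2-Eb1*, *Pirb* and *Irf1* were named after their values were seen. Window searches used GENCODE vM21 transcripts (GRCm38) with Python 3.11.15, because genomic sequence and introns were not analysed here. Upstream sequences came from RefSeq on GRCm38.p6, in which 9 of 10 members were matched. Alternatives were DESeq2 1.42.0, library totals in place of TMM, no filter, the adjusted p alone, doublets kept, stricter limits (over 500 genes and 1000 UMIs), thinning to 1000 UMIs, resolution 2 and leaving out each library.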

Additional observations from a re-analysis of the deposited data

Results flagged for a closer look

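Among the 10 members in 5 classes and over all nuclei, nude and BALB/c lay on opposite sides of both C57J libraries in 5 cases. How often all genes show this order was not computed, so the count says nothing particular to the members. The difference between nude and BALB/c was not tested, since each has 1 library. *H2-D1* in OLs was at 14.9 CPM in nude (31 UMIs) and 6.11 in BALB/c (38 UMIs), against 7.20 and 7.10 in C57J. *H2-Q7* over all nuclei was at 0.241 CPM in nude (16 UMIs) and 0.0585 in BALB/c (6 UMIs), against 0.0631 and 0.0996. The other 3 cases rested on 10 or fewer UMIs in each of these libraries. *H2-Q6* in neurons was at 0.0521 CPM in nude (3 UMIs) and 0 in BALB/c, *H2-Q4* in OPCs at 3.04 in nude and 1.40 in BALB/c, and *H2-Q4* in microglia at 5.88 in nude and 12.2 in BALB/c.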

How the results depend on the processing

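No paired analysis was possible because only the C57J libraries carry replicate numbers, and a batch term would equal leaving out C57J 1. Of 0 members called in each class, 2 were called in neurons and 2 over all nuclei (*B2m* and *H2-T23*) with DESeq2, and 2 in each with no filter on low counts. With no filter, 956 of 27228 of all genes were called in neurons and 826 of 27619 over all nuclei. The main test called 397 of 19645 and 316 of 20410. Why these settings called more was not tested. A fit without 1 library leaves 1 library in a group, so only its fold changes are given. *B2m* ranged from −1.53 to −0.94 in neurons, from −1.60 to −0.54 in OLs and from −1.27 to −0.81 in OPCs. *H2-T23* in neurons ranged from −1.94 to −1.25. *H2-K1* in neurons ranged from −0.64 to 0.19 over the libraries left out, *H2-D1* in OLs from −0.088 to 1.05, *H2-T22* in OPCs from −0.56 to 0.43 and *H2-Q4* over all nuclei from −0.057 to 0.79, and each changed sign, as did *H2-D1* in OPCs after thinning to 1000 UMIs (−0.090). All other fold changes of members kept their direction under the alternatives run, though not their size. Over the libraries left out, *B2m* in microglia ranged from −0.59 (without BALB/c) to −0.090 (without C57J 1), *H2-D1* in microglia from −1.22 (without BALB/c) to −0.062 (without nude), *H2-K1* in microglia from −2.66 (without BALB/c) to −1.09 (without C57J 1), *H2-T22* in neurons from −0.91 (without nude) to −0.29 (without BALB/c) and *H2-Q4* in neurons from 0.15 (without C57J 2) to 1.41 (without C57J 1). DESeq2 called 732 genes in neurons against 397 by edgeR, 96 against 9 in astrocytes, 82 against 9 in OLs, 15 against 0 in microglia and 735 against 316 over all nuclei. Shares of nuclei with a class II UMI moved on thinning to 0.0288% in neurons, 0.0267% in astrocytes and 0% in OPCs. In microglia of the single libraries they were 0.307%, 0%, 0.337% and 0.341% after thinning. With 50-base windows the unique share was 91.2% for *H2-K1*, 85.7% for *H2-D1*, 60.8% for *H2-Q4*, 65.0% for *H2-Q6*, 65.1% for *H2-Q7*, 55.3% for *H2-T22* and 70.2% for *H2-T23*. *H2-Q6*, *H2-Q7* and *H2-Aa* had too few UMIs to be tested in any class at this depth.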
